A study of Mus musculus with 10 samples.

Results

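The autophagy machinery of the mouse kidney was examined step by step in animals fed rilmenidine, an oral blood pressure drug that acts on imidazoline receptors. The genes were a set of 42 symbols chosen for their known roles and grouped by step as initiation, the PI3K complex, membrane supply and tethering, conjugation, the Atg8 family and cargo receptors. All 42 were found among the 43629 genes listed in the count table. The measurements are polyA RNA counts from 10 kidneys of male UM-HET3 mice, a genetically mixed stock in which each animal differs from the next, all 4 months old. The control mice (n = 6) ate the diet Purina 5LG6, and the rilmenidine mice (n = 4) ate it with 10 ppm of the drug for 1 month from 3 months of age, the controls being littermates. Each library is 1 animal, so tests between the groups measure the spread between these animals.

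Autophagy encloses cytoplasm in a double membrane, the autophagosome, which then fuses with the lysosome, where its contents are degraded. A kinase complex starts the process, a lipid kinase marks the membrane with phosphatidylinositol 3-phosphate, lipid carriers and conjugation enzymes extend it, and small ubiquitin-like proteins of the Atg8 family become attached to it and hold receptors that bring in cargo. In the kidney the pathway is known for its upkeep of tubule cells, which are rich in mitochondria. The study connected it with rilmenidine in worms, where it lowered bec-1 and lgg-1 and imaged LGG-1. Becn1 is the mouse counterpart of bec-1, and LGG-1 belongs to the Atg8 family. For mouse liver and kidney the study also ran gene set enrichment, with autophagy among the chosen functions. Its text names mTOR signaling (liver) and proteolysis (kidney) as enriched among genes raised by the drug. The comparison here asks whether RNA of the machinery differed in kidneys of treated mice, and it does not measure autophagic flux.

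Library totals were 863605 to 2559118 counts in controls and 1813465 to 3232063 counts with rilmenidine (two-sided exact permutation test, p = 0.0571, the smallest possible p being 0.00476). Malat1, a nuclear long noncoding RNA, divided the control libraries: controls 2 and 6 had 371 and 284 CPM (counts scaled to the library total), like the 288 to 390 CPM (all 4 libraries) of the rilmenidine group, whereas the other 4 controls had 1199.6 to 2209 CPM (exact permutation p between the groups 0.0810). Kidney markers summed to 42338 to 55550 CPM in controls and 42969 to 64474 CPM with rilmenidine, and liver markers to 29.2 to 75.8 and 24.8 to 62.4 CPM. Odorant and pheromone receptor genes reached 10 CPM in 7 libraries, 5 control and 2 rilmenidine, and the fits were repeated within this receptor subset. It keeps the libraries with more of these reads. It leaves out control 6 and rilmenidine 3 and 4, at 6.64, 3.62 and 6.81 CPM, which had the largest library totals. The subset is therefore not a selection for depth or quality. The labels give kidney as the tissue, while their extraction text speaks of liver. In whole tissue, fewer cells of a type and less RNA per cell cannot be told apart.

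No autophagy gene was called different between rilmenidine and control kidneys. Of the 42 genes, 40 passed the filter on low counts and were tested, and 0 had an adjusted p under 0.05 by the quasi-likelihood test of edgeR, with p-values adjusted by Benjamini-Hochberg over the 10055 genes tested, of which 0 (0%) were called. The members were also at 0 with the edgeR likelihood ratio test, which called 44 genes of all (0.438%). They were at 0 with DESeq2 too, which called 60 (0.778% of the genes to which it gave an adjusted p). With such small shares, 0 of 40 does not set the members apart from other genes. At an unadjusted p under 0.05 there were 2 members, the mitophagy kinase gene Pink1 and the membrane-binding gene Wipi1, both higher with the drug. That is 5% of the members tested, beside 10.6% of all genes tested, 4.43% being higher and 6.13% lower. The groups did not overlap for 1 member, Pink1, or 2.5% of the members beside 1.67% of all genes, 0.796% with rilmenidine higher and 0.875% with it lower.

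The differences were small as well as uncalled. Log2 fold changes, rilmenidine over control, ran from −0.33 (Pik3r4) to 0.36 (Pink1), with 24 members above 0 and 16 below, and their median was 0.05, against 0.00 over all genes tested. None of the 40 lay further than 0.5 from 0, where 10.6% of all genes did. Their median standard error was 0.174, beside 0.216 over all genes tested, so this share and the next compare genes of unlike precision. The 95% interval stayed within 1 log2 unit, a change of 2-fold, on both sides for 38 members, or 95%, beside 79.9% of all genes tested. The exceptions were Becn1, at −0.55 to 1.00, and Optn, at −1.15 to 0.98, and 19 members had an interval within 0.5. The median interval reached 0.368 to each side of the estimate, before any adjustment over the genes tested. Smaller changes of a typical member could not be told from 0, and a call after adjustment needs a larger change still. Pink1, at 0.36, had an edgeR adjusted p of 0.285. As a share of all counts, the members together made up 0.528% ± 0.0283 (SD, n = 6) of control libraries and 0.544% ± 0.0417 (SD, n = 4) of rilmenidine libraries.

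**Figure D1:**
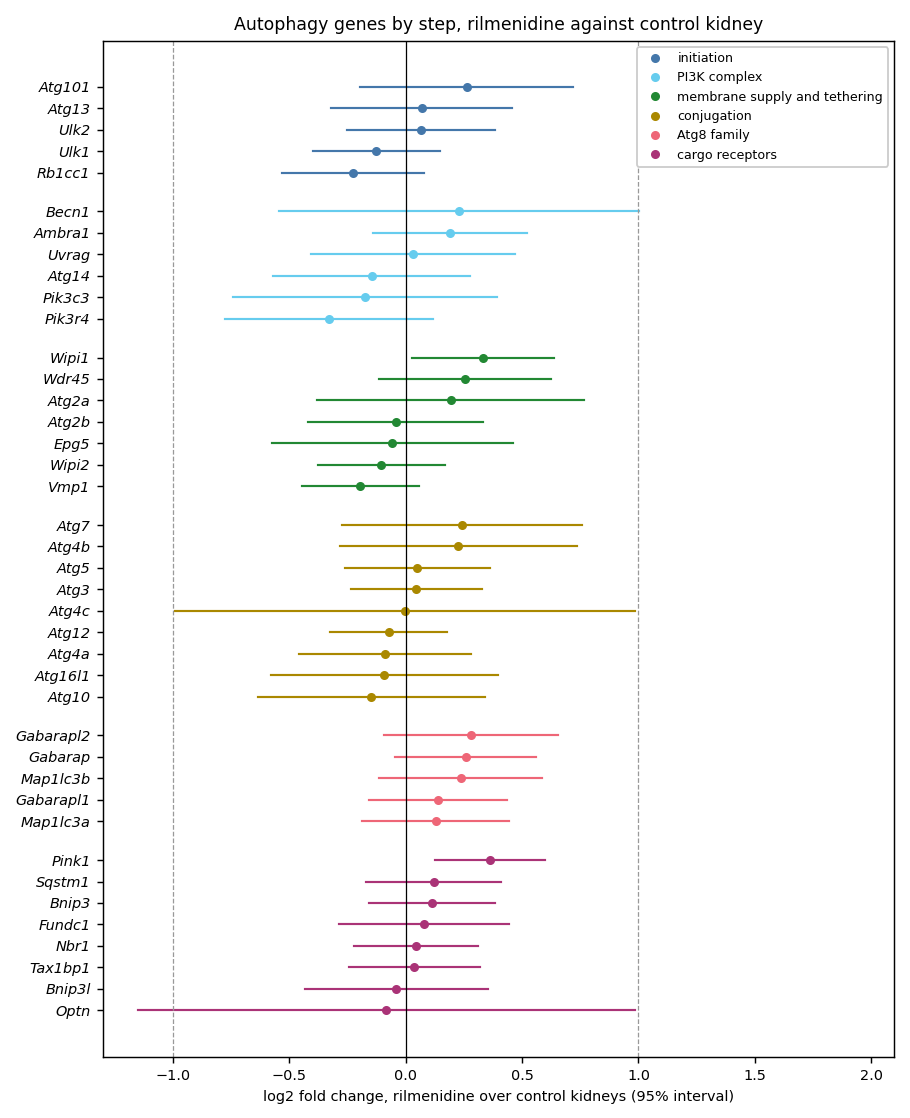
Log2 fold change of each of the 40 tested autophagy genes, rilmenidine over control kidneys (points), with its 95% interval from the edgeR fit (lines), coloured by step and ordered by estimate within a step; dashed lines mark a change of 1 log2 unit. The intervals of Pink1 and Wipi1 lie above 0, all 5 Atg8 family points lie right of 0 with intervals that cross it, and only the intervals of Becn1 and Optn reach past a dashed line.

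Within the steps, medians ranged from −0.06 (PI3K complex, 6 tested) through −0.04 (membrane supply and tethering, 7 tested), −0.0025 (conjugation, 9 tested), 0.06 (initiation, 5 tested) and 0.06 (cargo receptors, 8 tested) to 0.24 (Atg8 family, 5 tested). The Atg8 family was the step with all of its genes on the higher side. The order of the steps changed between fits, that of the Atg8 family included. In the receptor subset the PI3K complex was at 0.18, over 5 tested genes without Becn1, and conjugation at −0.11. With log2 library size as a covariate membrane supply and tethering was at 0.13, initiation at 0.11 and the Atg8 family at 0.10. With log2 Malat1 as a covariate the Atg8 family was at −0.09. None of these medians was tested, and genes of a step come from the same 10 libraries. Levels below are normalized CPM, the CPM after RLE scaling of the libraries, and each gene is compared with itself between groups.

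**Figure D2:**
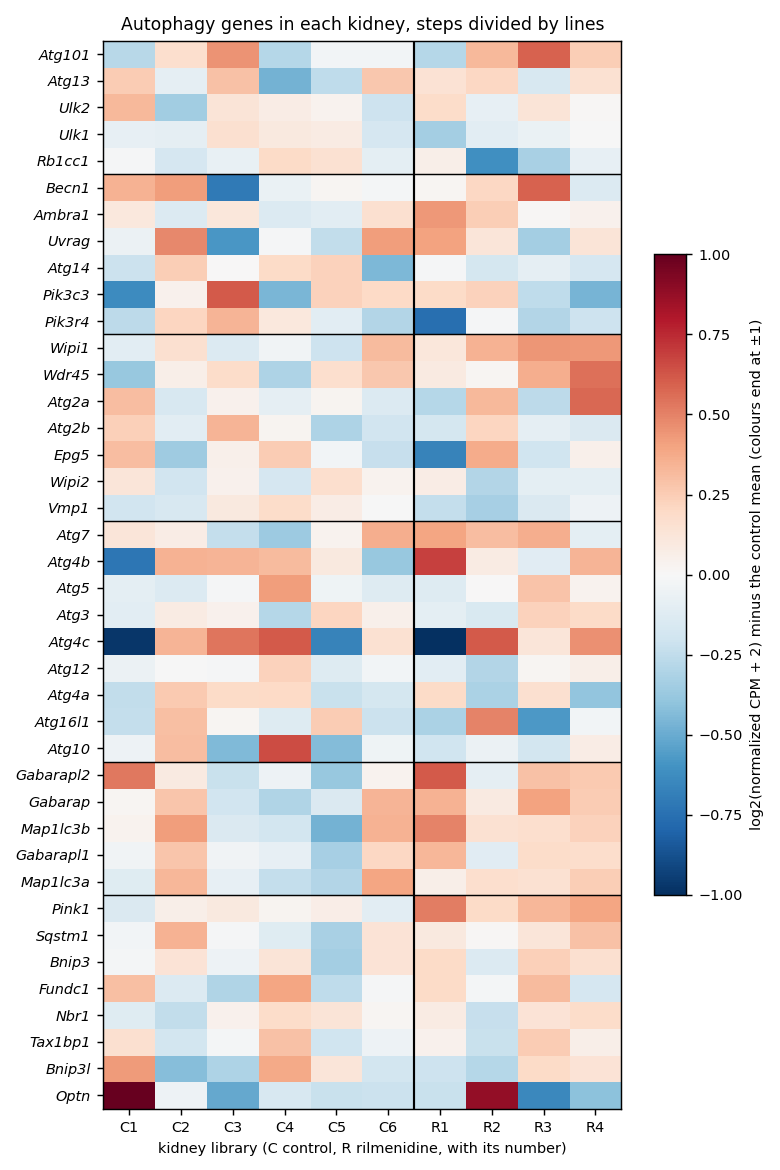
Level of the 40 tested genes (rows, steps divided by lines) in each kidney (columns, controls C1 to C6 and rilmenidine R1 to R4), as log2(normalized CPM + 2) minus the control mean of the gene; red is higher, blue lower, and colours end at 1 log2 unit. The row of Pink1 is red in R1 to R4 and pale or blue in all controls, while the Atg8 rows other than Gabarapl2 are red in C2 and C6 as well as in most rilmenidine kidneys.

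The initiation complex, which receives the signals of mTOR and AMPK, gave 3 genes above 0 and 2 below. Rb1cc1 (ENSMUSG00000025907, chromosome 1, 6206197 to 6276648, GRCm38), the scaffold FIP200 of the complex, ranged from 101 to 131 with a median of 111 in controls and was 119, 73.9, 90.6 and 107 in rilmenidine kidneys 1 to 4. Rilmenidine 2 and 3 were below all controls and the other 2 within their range. The means were 114 ± 11.9 (SD, n = 6) and 97.7 ± 19.7 (SD, n = 4), a log2 fold change of −0.23 (standard error 0.14, interval −0.53 to 0.08, edgeR adjusted p = 0.606), and it was −0.08 with log2 Malat1 as a covariate and −0.33 without rilmenidine 1. Atg101 (ENSMUSG00000037204, chromosome 15, 101284272 to 101290945), which steadies Atg13 in the complex, ranged from 15.6 to 27.4 with a median of 19.1 in controls and was 15.7, 25.0, 30.4 and 23.4 with the drug. Its groups overlapped at both ends, and the log2 fold change was 0.26 (standard error 0.22, interval −0.19 to 0.72, edgeR adjusted p = 0.707), which became 0.02 in the receptor subset, 0.11 without rilmenidine 3 and 0.40 without rilmenidine 1. The kinase genes Ulk1 and Ulk2 and the adaptor Atg13 had log2 fold changes of −0.13, 0.06 and 0.07. Among the initiation genes 0 had an unadjusted p under 0.05.

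The PI3K complex makes the phosphatidylinositol 3-phosphate that later factors bind, and its genes were evenly divided, 3 above 0 and 3 below. Becn1 (ENSMUSG00000035086, chromosome 11, 101285952 to 101302286), the mouse counterpart of bec-1, was thinly counted, with 2 to 20 counts per library. It stood at 5.61, 5.99, 1.66, 3.71, 4.05 and 3.90 in controls 1 to 6 and at 4.06, 4.89, 6.996 and 3.44 with rilmenidine. Rilmenidine 1, 2 and 4 fell inside the control range and rilmenidine 3 above it. The log2 fold change was 0.23 (standard error 0.37, edgeR adjusted p = 0.884), and with the interval given above neither no change nor a change near 2-fold was excluded at this depth. Without rilmenidine 3 it was −0.030. Pik3r4 (ENSMUSG00000032571, chromosome 9, 105642978 to 105687657), the regulatory subunit VPS15, ranged from 17.5 to 28.2 with a median of 22.0 in controls and was 12.2, 21.7, 17.5 and 18.7 with the drug. Only rilmenidine 1 lay clearly under the controls, and the log2 fold change was −0.33 (standard error 0.21, interval −0.78 to 0.12, edgeR adjusted p = 0.609), or −0.21 without rilmenidine 1. Ambra1 (ENSMUSG00000040506, chromosome 2, 91730134 to 91918849), which activates Beclin 1, ranged from 28.2 to 35.1 with a median of 31.3 in controls and was 42.9, 37.5, 31.5 and 32.2 with rilmenidine. Rilmenidine 1 and 2 were above all controls, at a log2 fold change of 0.19 (standard error 0.16, interval −0.14 to 0.52, edgeR adjusted p = 0.706). That value was 0.10 without rilmenidine 1 and 0.40 in the receptor subset. The catalytic subunit Pik3c3, Atg14 and Uvrag, alternative partners that direct the complex to autophagosome formation or to later trafficking, had log2 fold changes of −0.18, −0.15 and 0.03.

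Membrane supply and tethering held one of the pair of genes with an unadjusted p under 0.05. Wipi1 (ENSMUSG00000041895, chromosome 11, 109573331 to 109611967), which binds phosphatidylinositol 3-phosphate on the growing membrane, ranged from 42.8 to 62.4 with a median of 47.2 in controls and was 53.9, 63.5, 67.9 and 67.8 in rilmenidine kidneys 1 to 4. Rilmenidine 2 to 4 were above all controls, but controls 2 and 6, at 55.7 and 62.4, were above rilmenidine 1, so the groups overlapped. The means were 50.01 ± 7.53 (SD, n = 6) and 63.3 ± 6.55 (SD, n = 4). The log2 fold change was 0.33 (standard error 0.14, interval 0.03 to 0.64), with an unadjusted p of 0.0347 and an adjusted p of 0.439 in the edgeR test. Controls 2 and 6 are the libraries with little Malat1. With log2 Malat1 as a covariate the log2 fold change was 0.12 (edgeR, unadjusted p 0.461, adjusted p 1.00), and without the controls of high Malat1 it was 0.10 (edgeR, unadjusted p 0.561, adjusted p 1.00). With library size as the only scaling Wipi1 had an unadjusted p of 0.0718 and Vmp1, lower with the drug, one of 0.0480, so that Vmp1 took its place beside Pink1 (adjusted p 0.504 and 0.457 in edgeR). Wipi2, a close relative of Wipi1, gave −0.10.

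Vmp1 (ENSMUSG00000018171, chromosome 11, 86583865 to 86683836), which moves lipids between membrane leaflets at the endoplasmic reticulum, ranged from 239 to 309 with a median of 279 in controls and was 230.2, 216, 247 and 263 with rilmenidine. Rilmenidine 1 and 2 were below all controls, and the log2 fold change was −0.20 (standard error 0.12, interval −0.45 to 0.06, edgeR adjusted p = 0.589). It was −0.11 without the controls of high Malat1 and −0.30 in the receptor subset. The pseudogene Gm11478 overlaps Vmp1 on the same strand and had up to 393 counts in a library, beside up to 842 for Vmp1, so the division of reads between them is uncertain. Atg9a (ENSMUSG00000033124), the scramblase carried by vesicles that seed the membrane, was not tested, with 2, 5, 1, 1, 1 and 2 counts in controls 1 to 6 and 1, 2, 1 and 0 with rilmenidine. On the opposite strand it is overlapped by Ankzf1, which had up to 69 counts. The lipid transfer genes Atg2a and Atg2b gave 0.19 and −0.04, the WIPI relative Wdr45 0.26 and the fusion tether Epg5 −0.06 on the log2 scale, and 0 of these 4 had an unadjusted p under 0.05. Gskip overlaps Atg2b on the opposite strand and had up to 63 counts, beside up to 84 for Atg2b.

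The conjugation step, in which a pair of ubiquitin-like cascades attaches Atg12 to Atg5 and Atg8 proteins to lipid, had 4 tested genes above 0 and 5 below. Atg7 (ENSMUSG00000030314, chromosome 6, 114643097 to 114860614), the activating enzyme shared by both cascades, ranged from 7.43 to 13.6 with a median of 10.6 in controls and was 13.9, 13.0, 13.6 and 9.37 with rilmenidine. Rilmenidine 1 was just above all controls, and rilmenidine 2 and 3 stood close under the highest of them, at a log2 fold change of 0.24 (standard error 0.24, interval −0.28 to 0.76, edgeR adjusted p = 0.791). Without the controls of high Malat1 this was 0.0034, and in the receptor subset 0.48. Atg4b (ENSMUSG00000026280, chromosome 1, 93751500 to 93790610), the protease that primes Atg8 proteins, ranged from 11.2 to 25.8 with a median of 23.3 in controls and was 33.1, 21.2, 18.2 and 25.6 with the drug. Only rilmenidine 1 was above all controls, and the log2 fold change was 0.23 (standard error 0.24, interval −0.28 to 0.74, edgeR adjusted p = 0.791), or 0.06 without that kidney. Thap4 overlaps Atg4b on the opposite strand and had up to 110 counts in a library, beside up to 82 for Atg4b. The division of reads between them is uncertain. Atg4d (ENSMUSG00000002820), a relative of Atg4b, was not tested, with 0, 3, 1, 0, 0 and 1 counts in controls and 0, 1, 3 and 0 with rilmenidine. The other 7 genes, Atg3, Atg4a, Atg4c, Atg5, Atg10, Atg12 and Atg16l1, had log2 fold changes from −0.15 (Atg10) to 0.05 (Atg3 and Atg5). Atg3 and Atg10 are the enzymes that hand Atg8 and Atg12 to their targets, and Atg16l1 places the Atg12 and Atg5 pair on the membrane.

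The Atg8 family, to which worm LGG-1 belongs, coats the autophagosome membrane. All 5 mouse genes were higher on average with rilmenidine without any passing the test. Log2 fold changes were 0.28 (Gabarapl2), 0.26 (Gabarap), 0.24 (Map1lc3b), 0.14 (Gabarapl1) and 0.13 (Map1lc3a), and 50.3% of all genes tested were above 0. The 5 adjusted p-values of the edgeR test lay between 0.545 and 0.814, and 0 of the 5 had an unadjusted p under 0.05. Every one of these genes overlapped between the groups.

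Map1lc3b (ENSMUSG00000031812, chromosome 8, 121590361 to 121598760) encodes LC3B, the usual marker protein of autophagosomes. Its controls 1 to 6 were at 626, 816, 551, 536, 440.2 and 777, and rilmenidine kidneys 1 to 4 at 862, 678, 686 and 717. The 4 rilmenidine kidneys were above 4 of the controls, and controls 2 and 6 stood among them. The means were 624 ± 146 (SD, n = 6) and 736 ± 86.0 (SD, n = 4), a log2 fold change with standard error 0.17 and interval −0.11 to 0.59 (edgeR adjusted p = 0.643). Gabarap (ENSMUSG00000018567, chromosome 11, 69991143 to 69994951), of the subfamily tied to late autophagosome growth and fusion, showed the same order. Its controls were at 466, 558, 402, 373, 415 and 582 and its rilmenidine kidneys at 585, 489, 608 and 548, with means of 466 ± 86.3 (SD, n = 6) and 558 ± 51.7 (SD, n = 4). Its edgeR interval was −0.05 to 0.56 (standard error 0.14, adjusted p = 0.545).

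Map1lc3a (ENSMUSG00000027602, chromosome 2, 155276297 to 155278073), the LC3A gene, was at 114, 158, 118, 105, 101 and 165 in controls and at 129.9, 140.1, 139 and 148 with rilmenidine. All 4 rilmenidine kidneys sat in the gap between controls 2 and 6 and the other 4 controls (interval −0.19 to 0.44, standard error 0.15, edgeR adjusted p = 0.814). Gabarapl1 (ENSMUSG00000030161, chromosome 6, 129533160 to 129542346) was at 661, 821, 661, 641, 536 and 780.2 in controls and at 851, 627, 769.96 and 765 with the drug. Its rilmenidine 2 was below 5 controls and its rilmenidine 1 above all of them (interval −0.16 to 0.44, standard error 0.14, edgeR adjusted p = 0.773). Gabarapl2 (ENSMUSG00000031950, chromosome 8, 111940703 to 111953612), the GATE-16 gene, was at 85.3, 62.3, 49.8, 56.5, 44.5 and 60.0 in controls and at 90.5, 54.8, 72.1 and 70.6 with the drug. Here control 1, not control 2 or 6, was the highest control (interval −0.10 to 0.66, standard error 0.18, edgeR adjusted p = 0.606), and without rilmenidine 1 the log2 fold change was 0.16.

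**Figure D3:**
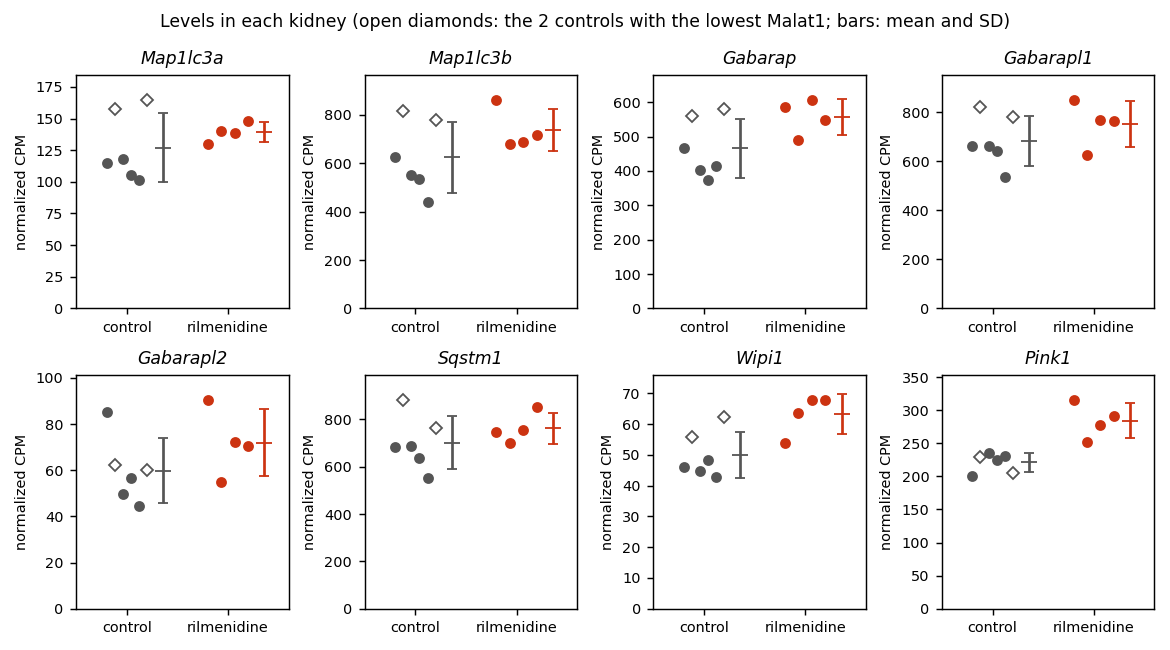
Normalized CPM (vertical axes, from 0) of the 5 Atg8 family genes, Sqstm1, Wipi1 and Pink1 in each control and rilmenidine kidney; each point is 1 animal, bars are mean and SD, and open diamonds are controls 2 and 6, which had the least Malat1. The diamonds are the highest controls for Map1lc3a, Map1lc3b, Gabarap, Gabarapl1, Sqstm1 and Wipi1, and for Pink1 they lie among the other controls, below all rilmenidine kidneys.

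The control kidneys were themselves divided for this family. Controls 2 and 6 were both above the other 4 controls for 4 of the 5 Atg8 genes, Gabarapl2 being the exception. Over all tested members this was so for 8, which were Map1lc3a, Map1lc3b, Gabarap, Gabarapl1, Sqstm1, Wipi1, Uvrag and Bnip3, or 20% beside 13.6% of all genes tested. They were below the other controls for 6 members, Rb1cc1, Ulk1, Ulk2, Atg5, Atg2a and Epg5, or 15% beside 13.4%. With log2 Malat1 as a covariate 1 of the 5 Atg8 genes was above 0, at a median of −0.09, and without the 4 controls of high Malat1 also 1, at a median of −0.09. With log2 library size as a covariate 4 of the 5 were above 0, at a median of 0.10. When each kidney was left out all 5 stayed above 0, at medians of 0.15 to 0.30. The median was below 0 only in the fits that took Malat1 into account, of those named here. In both of these, controls 2 and 6 were the only controls at the Malat1 level of the rilmenidine kidneys, so the fits are not independent. The part of Malat1 in the levels of these genes was not tested.

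**Figure D4:**
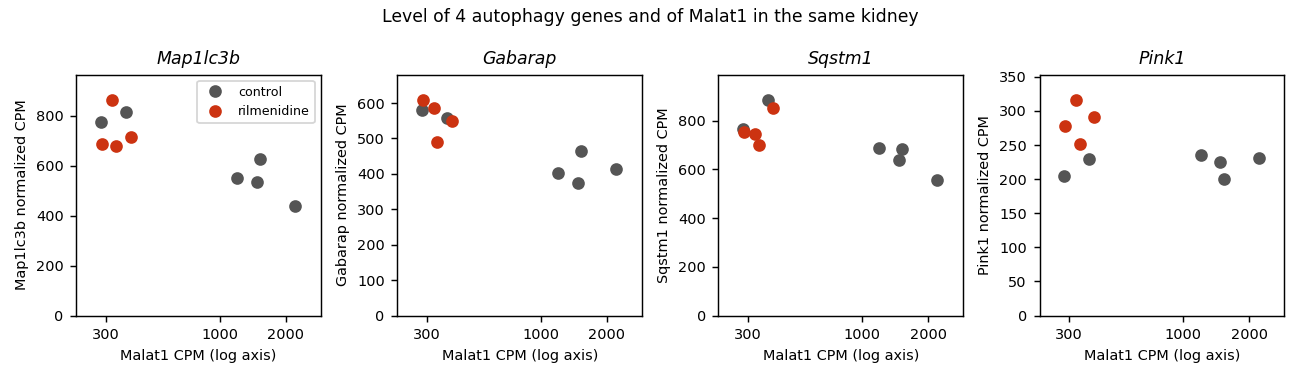
Normalized CPM of Map1lc3b, Gabarap, Sqstm1 and Pink1 (vertical axes, from 0) against Malat1 CPM (horizontal, log axis) in the same kidney, with controls in grey and rilmenidine in red. The 2 controls with 284 and 371 Malat1 CPM sit among or just above the rilmenidine kidneys for Map1lc3b, Gabarap and Sqstm1, whereas for Pink1 they sit with the other controls, below every rilmenidine kidney.

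Among cargo receptors and mitophagy genes, 6 were above 0 and 2 below, and Pink1 had the smallest unadjusted p of the 40 tested members in edgeR. Pink1 (ENSMUSG00000028756, chromosome 4, 138313409 to 138326307) encodes the kinase that accumulates on damaged mitochondria and marks them for autophagy. It was at 199.8, 229.5, 236, 225, 231 and 205 in controls 1 to 6 and at 315, 251, 278 and 291 in rilmenidine kidneys 1 to 4. Every rilmenidine kidney was above every control, with 251 and 236 the nearest values of the groups. The means were 221 ± 14.9 (SD, n = 6) and 284 ± 26.7 (SD, n = 4), 1.28-fold higher in the ratio of means. The log2 fold change was 0.36 (standard error 0.11, interval 0.12 to 0.60), with an unadjusted p of 0.00514 and an adjusted p of 0.285 in edgeR's quasi-likelihood test, so Pink1 did not pass the threshold over all genes.

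The estimate for Pink1 moved little between fits. Over 21 alternatives it ran from 0.29 to 0.42, with an unadjusted p under 0.05 in 20, and the exception was the receptor subset, at 0.0517 in edgeR. It was 0.39 with log2 Malat1 as a covariate (edgeR, unadjusted p 0.0120, adjusted p 1.00) and 0.39 without the controls of high Malat1 (edgeR, unadjusted p 0.0316, adjusted p 1.00). The adjusted p over these alternatives ran from 0.0930 with DESeq2 to 1.00, and no fit called it. All of these fits use the same 10 libraries or subsets of them, so they are not independent support.

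Bnip3 (ENSMUSG00000078566, chromosome 7, 138890836 to 138909519), a mitophagy receptor induced in low oxygen, ranged from 217 to 303 with a median of 287 in controls and was 314, 250.3, 326 and 308 with rilmenidine. Rilmenidine 1, 3 and 4 were above all controls and rilmenidine 2 was inside their range, and the log2 fold change was 0.11 (standard error 0.13, interval −0.16 to 0.38, edgeR adjusted p = 0.805). Sqstm1, which encodes p62, the receptor that binds ubiquitinated cargo, was at 684, 883, 689, 639, 554 and 766 in controls and at 745, 699, 754 and 853 with the drug, at a log2 fold change of 0.12. Its groups overlapped, with control 2 the highest of all 10. The ubiquitin-binding receptors Nbr1 and Tax1bp1 gave 0.05 and 0.04, the mitophagy receptors Fundc1 and Bnip3l 0.08 and −0.04, and Optn, whose protein links ubiquitin to LC3 and which was thinly counted, −0.08.

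Shares within paralog groups do not depend on library scaling, and these were tested next. For 13 genes the share of the raw counts of its group was compared by two-sided exact permutation tests, and after Benjamini-Hochberg adjustment over the 13 none was under 0.05, the smallest adjusted p being 0.619. Wipi1 made up 35.9% ± 4.89 (SD, n = 6) of Wipi1 plus Wipi2 in controls and 43.3% ± 4.57 (SD, n = 4) with rilmenidine, a difference of 7.39 percentage points (exact permutation p = 0.0571). Without the controls of high Malat1 the difference was 2.09 percentage points (exact permutation p = 0.60). Within the Atg8 family the shares were near each other between groups. Gabarapl1 held 35.0% and 33.3% of the counts, Map1lc3b 31.6% and 32.6%, Gabarap 23.8% and 24.7%, Map1lc3a 6.45% and 6.23%, and Gabarapl2 3.08% and 3.16%, in controls and rilmenidine kidneys in turn. The difference furthest from 0 in the family was that of Gabarapl1, −1.76 percentage points (exact permutation p = 0.148). Ulk1 held 60.0% and 56.7% of the Ulk pair, Atg2a 24.9% and 27.1% of the Atg2 pair, and Bnip3 82.2% and 84.1% of the Bnip3 pair. Of the Atg4 proteases, Atg4a held 61.8% and 56.3%, Atg4b 26.2% and 30.9%, Atg4c 11.5% and 12.3%, and Atg4d 0.558% and 0.507%. Paralogs can share reads, so each share carries that uncertainty beside the counting error. Shares of the Atg4 and Atg2 genes also carry the overlaps of Atg4b and Atg2b given above.

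Further genes of the pathway, 47 that act in fusion with the lysosome, in control of the PI3K complex and as receptors for the endoplasmic reticulum or mitochondria, gave a like picture. Atg9b, Vamp8 and Calcoco2 had no count in any library. Of 39 tested, 19 were above 0 and 20 below, 0 were called by edgeR and 1, Tex264, had an unadjusted p under 0.05, which is 2.56% beside 10.6% of all genes. Tex264, a receptor for autophagy of the endoplasmic reticulum, was at 32.5, 58.1, 47.3, 37.1, 38.2 and 57.3 in controls and at 65.0, 44.5, 65.1 and 66.2 with rilmenidine. Rilmenidine 1, 3 and 4 were above all controls and rilmenidine 2 was inside their range, with a log2 fold change of 0.40 (standard error 0.18, edgeR adjusted p = 0.451). Controls 2 and 6 were again the highest controls, and with log2 Malat1 as a covariate the log2 fold change was 0.09. The next by p on the higher side were Fkbp8, a mitochondrial receptor, at 0.23 (edgeR adjusted p = 0.580), and Vps39, a subunit of the tether for fusion with lysosomes, at 0.27 (edgeR adjusted p = 0.680). On the lower side Trp53inp1, which binds LC3 and is induced by p53, was at −0.44 (edgeR adjusted p = 0.499). With log2 Malat1 as a covariate Fkbp8, Vps39 and Trp53inp1 were at 0.03, 0.08 and −0.02.

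Transcription regulators of autophagy were 7, all tested, with 0 called by edgeR and 1 at an unadjusted p under 0.05. That is 14.3% beside 10.6% of all genes tested. Zkscan3, a zinc finger protein known to repress autophagy genes, was at 86.4, 77.9, 145, 137, 119 and 52.2 in controls and at 58.6, 67.9, 53.5 and 69.6 with rilmenidine. All 4 rilmenidine kidneys lay under 5 of the controls and above control 6. The log2 fold change was −0.71 (standard error 0.23, interval −1.21 to −0.22, edgeR adjusted p = 0.303). It was −0.09 with log2 Malat1 as a covariate and −0.05 without the 4 controls of high Malat1, and under a filter of 1 count in any library, where 0.874% of 27565 genes were called, it was called at an adjusted p of 0.00596 in edgeR. Over its alternatives the adjusted p ran from that value to 1.00. The activators Tfeb, Tfe3, Mitf, Foxo1 and Foxo3 were at −0.07, 0.01, −0.20, 0.02 and −0.11, none with an unadjusted p under 0.05.

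Binding motifs of these activators were looked up in the members' promoters, as a description of the letters only. RefSeq windows from 250 bases before to 50 after the start (GRCm38.p6) were at hand for 34 of the 42 members. The E-box CACGTG, on either strand, was in 5 of the 34 (14.7%), beside 8.09% of 27025 genes with a window and 12.3% of the 7850 of these that were tested. TCACGTG, the longer core bound by TFEB, TFE3 and MITF, contains the E-box and was in 3 of 34 (8.82%), beside 4.29% and 7.67%. The FOXO letters GTAAACA were in 0 of 34, beside 4.05% and 3.36%. The members with an E-box had log2 fold changes of 0.05 (Atg3), 0.05 (Atg5), −0.15 (Atg14), 0.11 (Bnip3) and 0.24 (Atg7), and neither Pink1 nor Wipi1 had one in its window. The sites are shown because TFEB is the best known regulator of this gene set, in capitals the E-box, on the strand of the gene.
Atg3, chr16:45158724-45158751, plus strand: cctccttttgtCACGTGtcctgggagag
Atg3, chr16:45158747-45158774, plus strand: gagagtcgagtCACGTGaggccttaggt
Atg5, chr10:44268314-44268341, plus strand: ggagcgcttgcCACGTGgtcttggtgac
Atg14, chr14:47568419-47568446, minus strand: aaacaaaatccCACGTGactggccctga
Bnip3, chr7:138909598-138909625, minus strand: cgcacgcgccgCACGTGccacacgctcc
Atg7, chr6:114670953-114670980, plus strand: atattggtggtCACGTGtgcagtaagtg
Counted from the start that RefSeq gives its window, the E-box began 1 base before it in Atg14, 14 before in Atg5, 71 and 94 before in Atg3 and 108 before in Bnip3. The windows of Atg7 and Atg14 lie well inside the genes as GENCODE draws them, at another start.

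Markers of cell types were read beside these results. Thick ascending limb genes summed to 1407 to 2293 CPM in controls and 1732 to 2862 CPM with rilmenidine. In edgeR 5 of 5 tested genes were above 0, beside 50.3% of all genes, and 0 were called. Umod (0.61) and Egf (0.42) had an unadjusted p under 0.05, or 40% beside 10.6% of all genes. Ptger3 was at 0.40, Slc12a1 at 0.08 and Kcnj1 at 0.07, each with an unadjusted p above 0.05. The part of thick ascending limb genes in the levels of the autophagy genes was not tested. Proximal tubule genes summed to 43886 to 57360 and 43788 to 65443 CPM, collecting duct genes to 369 to 529 and 351 to 525 CPM, endothelial genes to 246 to 410 and 326 to 354 CPM, immune genes to 85.1 to 243 and 142 to 166 CPM, and blood genes to 995 to 8218 and 2836 to 3938 CPM, in controls and rilmenidine kidneys. Kap alone, with means of 39169 and 46762 normalized CPM, made up most of the proximal tubule and kidney marker sums. Of the 10 proximal tubule genes tested, 5 were above 0 and 5 below. In these lists and the kidney markers edgeR called 0 genes, and those at an unadjusted p under 0.05 were, beside Umod and Egf, the water channel genes Aqp2 (0.58) and Aqp3 (0.34) of the collecting duct and the distal tubule transporter gene Slc12a3 (−0.55). That was 28.6% of tested collecting duct genes and 33.3% of tested kidney markers, beside 10.6% of all genes. No gene of these marker lists was at 0 in all libraries, and of the kidney markers the podocyte gene Nphs1 was too low to test, with at most 5 counts.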

How the data were processed

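PolyA RNA of kidneys from 6 control and 4 rilmenidine mice was sequenced from 3′ end libraries, and groups and numbers were taken from the sample labels. The supplementary methods give more control kidneys than the 6 analysed here. The authors deposited raw counts of reads per Ensembl gene; the submitters' processing notes name bcl2fastq 1.8.4, Trimmomatic 0.32, STAR 2.5.2b, featureCounts 1.5 and the build mm10. The annotation release, strand setting and handling of molecular identifiers are not given in the sources used here, so reads of overlapping and antisense genes cannot be told apart and amplification may add to the spread.

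The deposited counts were filtered to genes reaching 6 reads in 7 or more of the 10 libraries, scaled by RLE and fitted in edgeR 4.0.16 (R 4.3.3) with the quasi-likelihood test, no covariate and Benjamini-Hochberg adjustment over all 10055 genes. The common biological coefficient of variation was 0.221. GENCODE M21 (GRCm38) gave symbols and coordinates and holds 42548 of the listed genes. Counting error and animal spread are covered by the intervals, and library depth limits low genes. No 2 libraries were copies (45 pairs, chi-square per degree of freedom at least 3.70).

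Members and lists were chosen with earlier results of these data known. Named were, per step, the 2 tested members of smallest p, Becn1, the Atg8 family and untested members, and of the further autophagy genes and regulators the 3 of smallest p in each direction, of which 1 is not reported here. Sqstm1 was given per kidney after its values were seen, and the cell type markers were named then too. Alternatives were TMM, library size only, 2 other filters, the likelihood ratio test, DESeq2 1.42.0, covariates, the replicate number as a block, subsets and leaving out each kidney. The edgeR quasi-likelihood fit was tested on simulated data first.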

Additional observations from a re-analysis of the deposited data

Results flagged for a closer look

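Each tested autophagy gene was examined for a kidney far from the rest of its group by Dixon's test. Of 80 groups, 3 were picked out, where about 4 (1 in 20) would be by chance, and all 3 were in controls. Atg5 stood at 89.1 normalized CPM in control 4, beside 59.9 to 65.6 in the other controls. Atg12, whose protein is joined to that of Atg5, stood at 182 in the same kidney, beside 142 to 155. Optn stood at 12.3 in control 1, the library of fewest counts, beside 2.49 to 4.19.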

How the results depend on the processing

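No autophagy gene was called in any of the 21 alternatives, and the smallest adjusted p of any member was 0.0930 (Pink1, DESeq2). The members at an unadjusted p under 0.05 were 2 with all kidneys, beside 10.6% of all genes tested. They were 1 with the filter of 1 count in any library (beside 7.38%) and with the log2 library size covariate (4.3%). They were also 1 with the Malat1 covariate (3.09%) and without the 4 controls of high Malat1 (3.22%). They were 0 in the 7 libraries (5 control, 2 rilmenidine) where odorant and pheromone receptor genes reached 10 CPM (10.6%). They were 1 to 3 when each kidney was left out (7.29% to 14.4%). With library size only they were 2 (10.9%), but Vmp1 and Pink1. The members' median log2 fold change was −0.020 with library size only, −0.0033 without those 4 controls and 0.028 to 0.11 when each kidney was left out, beside 0.05. The edgeR count over all genes, 0, was 33 (0.325%) without control 2, 37 (0.365%) without control 6, 6 (0.0589%) without rilmenidine 1 and 241 (0.874%) with the filter of 1 count.

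Some genes turned to the lower side. With the Malat1 covariate these were Map1lc3a (−0.19), Map1lc3b (−0.11), Gabarapl1 (−0.095), Gabarap (−0.0094) and Bnip3 (−0.035), and without the 4 controls the same genes, at −0.21, −0.11, −0.088, −0.033 and −0.013. Map1lc3a was at −0.077 with the library size covariate, and Becn1 at −0.030 to 0.39 when each kidney was left out. Becn1 could not be tested with the filter of 10 counts in every library or in the 7 libraries. Without the 4 controls the shares of Map1lc3b (−0.73), Bnip3 (−2.59) and Atg4c (−0.99 percentage points) turned, and leaving out each kidney gave share differences of −1.01 to 3.94 (Atg2a), −1.54 to 4.44 (Atg4c), −0.31 to 0.21 (Atg4d), −0.058 to 0.34 (Gabarapl2) and −0.50 to 0.13 (Map1lc3a). The cause was not tested.

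Same-numbered kidneys had deviations correlated at 0.078, 0.074, −0.075 and −0.0064. Such values cannot exclude that animals were matched, so pairing is not known. With the replicate block 0 members were called, beside 3 (0.0298%) of all genes tested. An unadjusted p under 0.05 was reached by 2 members, beside 9.12% of all genes.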
